A study of Homo sapiens with 28 samples.

Results

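The starting pools of a genome-wide CRISPR knockout screen in U2OS cells, a human osteosarcoma line, are described here by the abundance of every guide RNA in p53 knockout cells (KO) and in cells with wild-type p53 (WT). In such a screen each cell carries 1 guide that directs Cas9 to cut 1 gene, and the count of that guide in genomic DNA stands for the number of cells that carry it. The tested samples were the 3 KO libraries and the 3 WT libraries collected untreated at 0 h (T0), lettered A, B and C in each genotype, 6 of the 28 samples in the series. Guides were summarised per gene, and 19044 of the 19050 gene names had the required 3 or more guides. The same pools sampled after 96 h in DMSO, the solvent, in 3 KO and 3 WT libraries served as a second reading. The sample titles call these DMSO libraries untreated. The libraries kept for 96 h in 5 µM etoposide entered the fit only as a source of the spread between libraries. No RNA sample was used.

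p53 is a transcription factor that stops division or starts cell death when DNA is broken or the cell is otherwise stressed. In unstressed cells it is held down by MDM2, the ubiquitin ligase that marks it for destruction, and by phosphatases and deubiquitinases that act on the same circuit, and its best known arrest target is CDKN1A, which encodes the inhibitor p21 of cyclin-dependent kinases. Cas9 breaks DNA at each site it cuts, and p53 is known to respond to such breaks. The comparison asks which guides were already rarer or more common in one genotype than in the other before the drug was added.

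The 6 libraries held 31391676 to 48230735 guide counts, with a median of 256 to 395 counts a guide, over 109367 guides of which 999 were non-targeting controls. Each gene of the list had 6 guides in 13928 cases, 5 in 4400, 4 in 641 and 3 in 75. Guide names fall into 2 sets by their prefix, called set A and set B below, and all non-targeting guides belonged to set A, which took 54.1 to 54.3% of the counts of every T0 library. Log2 CPM, the counts of a guide scaled to a common library size, of 2 libraries from one pool correlated at 0.954 to 0.963 across guides, and those of a KO and a WT library at 0.932 to 0.940. The labels do not say whether libraries A, B and C came from separate cultures or transductions, nor whether the KO cells are 1 clone. The p-values therefore measure the spread between libraries of one group, estimated over all 18 screen libraries. A difference due to p53 and a difference between the KO and WT pools as they were made cannot be told apart.

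Some guides did not repeat between libraries of one genotype. Among them, 1 guide against CASP6, the gene of an executioner caspase, was at 110, 98.6 and 538 CPM in KO libraries A, B and C, against 47.6, 111 and 110 CPM in the WT libraries. The summed level of CASP6 was 143, 131 and 574 CPM in KO, against 79.9, 145 and 141 CPM in WT. The gene did not pass the test (edgeR, adjusted p = 0.634), the groups overlap, and the cause of the high count was not tested.

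At T0 the KO and WT pools already differed in 871 genes, or 4.57% of those tested, by edgeR's quasi-likelihood test on counts summed over the guides of a gene (adjusted p under 0.05, Benjamini-Hochberg). In KO 461 genes were higher, or 2.42%, and 410 were lower, or 2.15%. The differences were small. On the log2 scale the summed counts of genes called higher differed by a median of 0.20 and at most 0.45, and those of genes called lower by a median of 0.19 and at most 0.44. The summed CPM of the 3 KO libraries did not overlap that of the 3 WT libraries in 5371 genes, or 28.2% of all, and this held for 454 of the 461 genes called higher and 397 of the 410 called lower. Leaving out any 1 of the 6 libraries cut the number of called genes to between 336 and 405.

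The scale of the comparison sets the balance of the 2 directions. Under TMM scaling, which centres the bulk of genes on no change, 52.9% of the called genes were higher in KO. With libraries scaled to their non-targeting guides instead, 1971 genes were higher and 159 lower in KO, so that 92.5% of the calls were higher, and the median gene lay 0.05 above WT on the log2 scale. All values that follow use TMM scaling and are relative to it.

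Single guides carried much of the spread. In KO 1532 guides were higher and 1440 lower, which is 2.72% of the 109367 tested. The called share was 2.71% among targeting guides and 3.10% among non-targeting guides, which cut no gene. The 2 shares are not like for like, since the median count at T0 was 582 for non-targeting guides and 322 for targeting guides. Of the 999 non-targeting guides 3 were higher and 28 lower in KO. Mean log2 fold changes from the set A guides and from the set B guides of the same gene correlated at only 0.06 across the 19038 genes with guides in both sets, and they had the same sign in 51.1% of genes. Among the called genes both sets pointed one way in 433 of 461 genes called higher and in 384 of 410 called lower, but the summed counts that made the call contain both sets. When the guides of a gene, rather than the libraries, were taken as the units, limma called 0 genes (1164 had an unadjusted p under 0.05), against 871 by edgeR over libraries. A call below therefore says that the sum over a gene's guides differed between the 2 pools. It says nothing of how alike its guides were, and the number of guides on each side is given beside it. Below, a gene that rose or fell in KO was higher or lower in KO than in WT at T0. No earlier time was measured, so which of the 2 pools had changed is not known.

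Of the 7 measured genes whose proteins hold p53 down, 2 were higher in KO than in WT and none lower, or 28.6% against 4.57% of all genes. With DESeq2, and in a fit of only the 6 T0 libraries, 3 were called higher and 1 lower. PPM1D encodes the phosphatase WIP1, which reverses the phosphorylations that activate p53. Its guides summed to 49.3, 48.3 and 47.1 CPM in KO libraries A, B and C, against 37.7, 34.8 and 36.8 CPM in the WT libraries, with a wide gap between the groups. All 6 guides were higher in KO, by a mean of 0.52 ± 0.33 on the log2 scale (SD over guides), and the summed counts by 0.40 (adjusted p = 2.81e-06), the smallest p of any gene. Of these guides 3 passed the test on their own, at log2 fold changes of 0.98, 0.71 and 0.75.

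MDM2 had the largest difference in summed counts, KO over WT, of all genes called. The sums were 34.9, 31.8 and 35.8 CPM in KO and 25.7, 23.9 and 25.5 CPM in WT, again without overlap. Of its 6 guides 5 were higher in KO, with a mean of 0.59 ± 0.51 (SD over guides), and the summed counts rose by 0.45 (adjusted p = 2.16e-05). The guides were far from alike, since 3 of them stood at 0.80, 1.11 and 1.12 and passed the test singly, 1 stood at 0.45, and the last 2 at 0.14 and -0.11. PPM1D and MDM2 stayed called with every library left out in turn and under every other setting except guides as the units.

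The other inhibitors did not pass by edgeR over all libraries. USP7, the deubiquitinase that stabilises MDM2, stood at 43.2, 45.5 and 44.6 CPM in KO, against 40.1, 41.1 and 36.5 CPM in WT, groups that do not overlap, with 5 of 6 guides higher and a summed difference of 0.18 (adjusted p = 0.0600). It was called higher with the non-targeting scaling (adjusted p = 0.00704), with DESeq2 (0.0275) and in the fit of the 6 T0 libraries (0.0142), and not in the other 12 alternatives, where the adjusted p reached 0.322 apart from guides as the units. MDM4, the partner of MDM2 that masks the activation domain of p53, was at 44.0, 40.7 and 41.8 CPM in KO and 40.5, 41.5 and 40.0 CPM in WT, which overlap. Its guides split 3 and 3 (summed difference 0.05, adjusted p = 0.696), and the sign of that difference turned to -0.045 when its most abundant guide was left out. RFWD2, another ubiquitin ligase for p53, differed by -0.15 (adjusted p = 0.0705), TRIM24 by -0.08 and RCHY1 by -0.02.

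**Figure D1:**
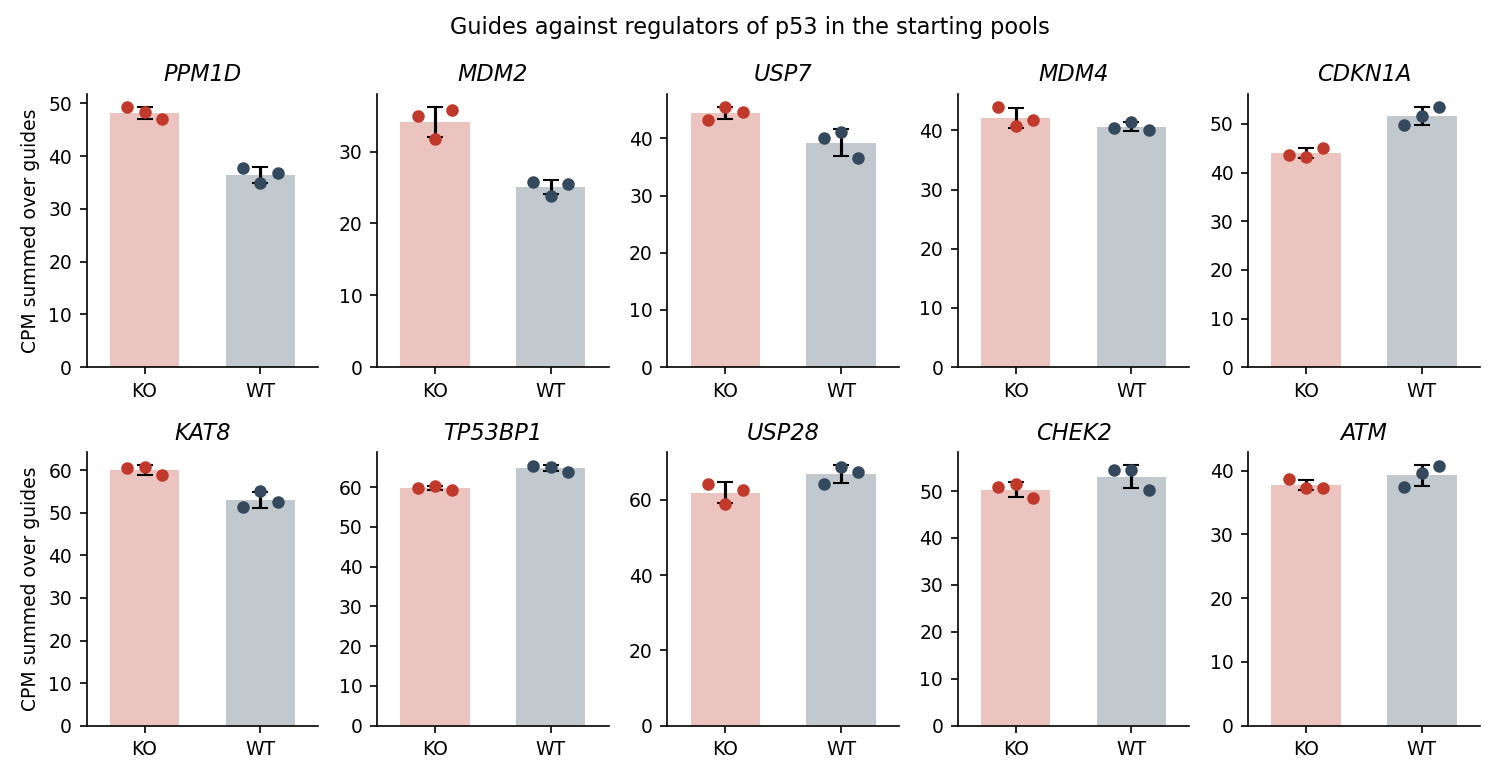
CPM summed over the guides of each gene in the 3 KO (left, red) and 3 WT (right, grey) libraries at T0; bars are means, error bars the SD over libraries, points the libraries. PPM1D and MDM2 lie higher in every KO library, CDKN1A lies lower in every KO library, and MDM4, USP28, CHEK2 and ATM overlap.

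Guides against the arrest target p21 went the other way. CDKN1A was at 43.6, 43.1 and 45.1 CPM in KO and 49.7, 51.7 and 53.5 CPM in WT. All 5 of its guides were lower in KO and close to each other, at a mean of -0.23 ± 0.08 (SD over guides). No guide passed the edgeR test on its own, the smallest adjusted p being 0.102. The summed difference was -0.23 (adjusted p = 0.00544). CDKN1A stayed called without any 1 library except WT library C. Counts of guides in DNA are not transcript levels, and the genotype labels were not checked here.

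Of the activators of p53 described here KAT8 rose. KAT8 encodes an acetyltransferase that acts on histone H4 and on p53, and its guides summed to 60.6, 60.9 and 58.8 CPM in KO, against 51.4, 55.1 and 52.6 CPM in WT, 4 of 6 being higher (summed difference 0.18, adjusted p = 0.0280). KAT8 was called in only 1 of the 6 fits that leave out a library, that without WT library B. The scaffold TP53BP1, which with USP28 relays centrosome and damage signals to p53, was at 59.8, 60.2 and 59.2 CPM in KO and 65.4, 65.0 and 63.9 CPM in WT, without overlap, yet its difference of -0.12 was not called (adjusted p = 0.130) and only 4 of its 6 guides were lower. USP28 differed by -0.11 (adjusted p = 0.155) and the damage kinases CHEK2 by -0.08 (adjusted p = 0.399) and ATM by -0.06 (adjusted p = 0.623), all with overlapping groups. RPL5, a ribosomal protein that binds MDM2, differed by -0.10 (adjusted p = 0.403) and its partner RPL11 by 0.02 (adjusted p = 0.920).

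None of the 17 measured death and arrest targets of p53 other than p21 was called by edgeR over all libraries, or by DESeq2. By edgeR 4 of them had an unadjusted p under 0.05, as had 3782 of all 19044 genes. With 4.57% of all genes called, 0 calls in a list of 17 does not set these genes apart. With the non-targeting scaling 2 were called higher, and in the fit of the 6 T0 libraries 1, FAS, was called lower. FAS, a death receptor, stood at -0.16 ± 0.20 over guides with 5 of 6 lower in KO (adjusted p = 0.120), GADD45A at -0.11 ± 0.25 (adjusted p = 0.183) and PMAIP1, which encodes NOXA, at 0.11 ± 0.17 (adjusted p = 0.209).

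Apart from PPM1D and MDM2, the 12 genes with the highest mean guide change among those that met a rule on guide number and guide agreement included several that every dividing cell needs. BUD31, a spliceosome protein, averaged 30.4 ± 1.65 CPM in KO and 22.9 ± 1.70 CPM in WT (SD, n = 3 each), and its 4 guides were all higher and alike, at a mean of 0.41 ± 0.09 (SD over guides; adjusted p = 0.000390). HEATR1, a nucleolar factor needed to make and process the ribosomal RNA precursor, was at 50.4, 48.9 and 45.8 CPM in KO and 39.4, 37.6 and 36.7 CPM in WT, with 6 of 6 guides higher and a mean of 0.41 ± 0.26 (adjusted p = 0.000337). The ribosomal protein genes RPL9 and RPL23 had all their guides higher in KO, 6 of 6 at a mean of 0.37 ± 0.24 (adjusted p = 0.0104) and 5 of 5 at a mean of 0.37 ± 0.25 (adjusted p = 0.000170). EIF6, which keeps the large ribosomal subunit from joining too early, rose by 0.39 ± 0.37 with 4 of 5 guides higher (adjusted p = 0.00165). It lost its call without its most abundant guide. SNRPF, a core protein of the small nuclear ribonucleoproteins, rose by 0.38 ± 0.36 with 4 of 5 (adjusted p = 0.0198).

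The remaining genes at the high end were more varied. RALA, a small GTPase, rose by 0.41 ± 0.27 with 4 of 4 guides higher (adjusted p = 0.00132), but lost its call without its most abundant guide. RNF146, a ubiquitin ligase that recognises poly(ADP-ribose), rose by 0.37 ± 0.22 with 5 of 5 (adjusted p = 0.000367). SWSAP1, which acts in homologous recombination, rose by 0.37 ± 0.32 with 4 of 5 (adjusted p = 0.00219). COX6A1, a subunit of cytochrome c oxidase, had a mean of 0.39 ± 0.50 over guides that ran from -0.08 to 1.33, and its summed counts rose by only 0.18 (adjusted p = 0.0103). It lost its call without KO library C or WT library A or C, SNRPF in 4 of the 6 fits that leave out a library, and RPL9 without KO library B or WT library A.

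The genes at the low end were varied too, and genes of protein synthesis and DNA replication, WARS and PCNA, were among them. MUC20, a membrane mucin, had the lowest mean, -0.43 ± 0.11 over 4 guides that were all lower, with 16.0, 15.5 and 15.4 CPM in KO and 20.5, 20.9 and 22.2 CPM in WT (adjusted p = 0.000539). SPATA8, named for its expression in testis, was lower in all 6 guides at -0.39 ± 0.13, with 44.3, 41.3 and 44.4 CPM in KO against 56.7, 56.7 and 52.1 CPM in WT (adjusted p = 9.26e-06). WARS, the cytosolic tryptophanyl-tRNA synthetase, was lower in all 5 guides at -0.37 ± 0.11 (adjusted p = 2.90e-05), ANGPTL1, a secreted protein of the angiopoietin-like family, in all 6 at -0.34 ± 0.15 (adjusted p = 1.55e-05), and SH3TC1 in all 6 at -0.36 ± 0.16 (adjusted p = 0.000450). In these 5 genes the SD over guides was at most 0.16.

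The others at the low end had guides on both sides or few guides. VPS18, a subunit of the tethering complexes of late endosomes, fell by a mean of -0.43 ± 0.42 with 5 of 6 guides lower (adjusted p = 0.000390), and MON2, which acts in traffic between endosomes and the Golgi, by -0.34 ± 0.45 with 5 of 6 (adjusted p = 0.00170). JPH4, a junctophilin of excitable cells, had -0.38 ± 0.48 with 5 of 6, but its summed counts differed by only -0.18 (adjusted p = 0.0317) and it lost its call without any 1 of the 6 libraries and with the non-targeting scaling. The next was HIST1H2BO, 1 of many nearly alike histone H2B genes whose guides may cut copies too, at -0.36 ± 0.31 with 5 of 6 (adjusted p = 0.000417). SOSTDC1, a secreted antagonist of bone morphogenetic proteins, had -0.33 ± 0.24 with 4 of 4 (adjusted p = 0.0337) and lost its call in 5 of the 6 fits that leave out a library and with the non-targeting scaling. PCNA, the sliding clamp of DNA replication, had -0.35 ± 0.30 with 4 of 5 (adjusted p = 0.00575) and was at 16.1, 15.9 and 18.1 CPM in KO, against 21.5 CPM in each WT library.

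**Figure D2:**
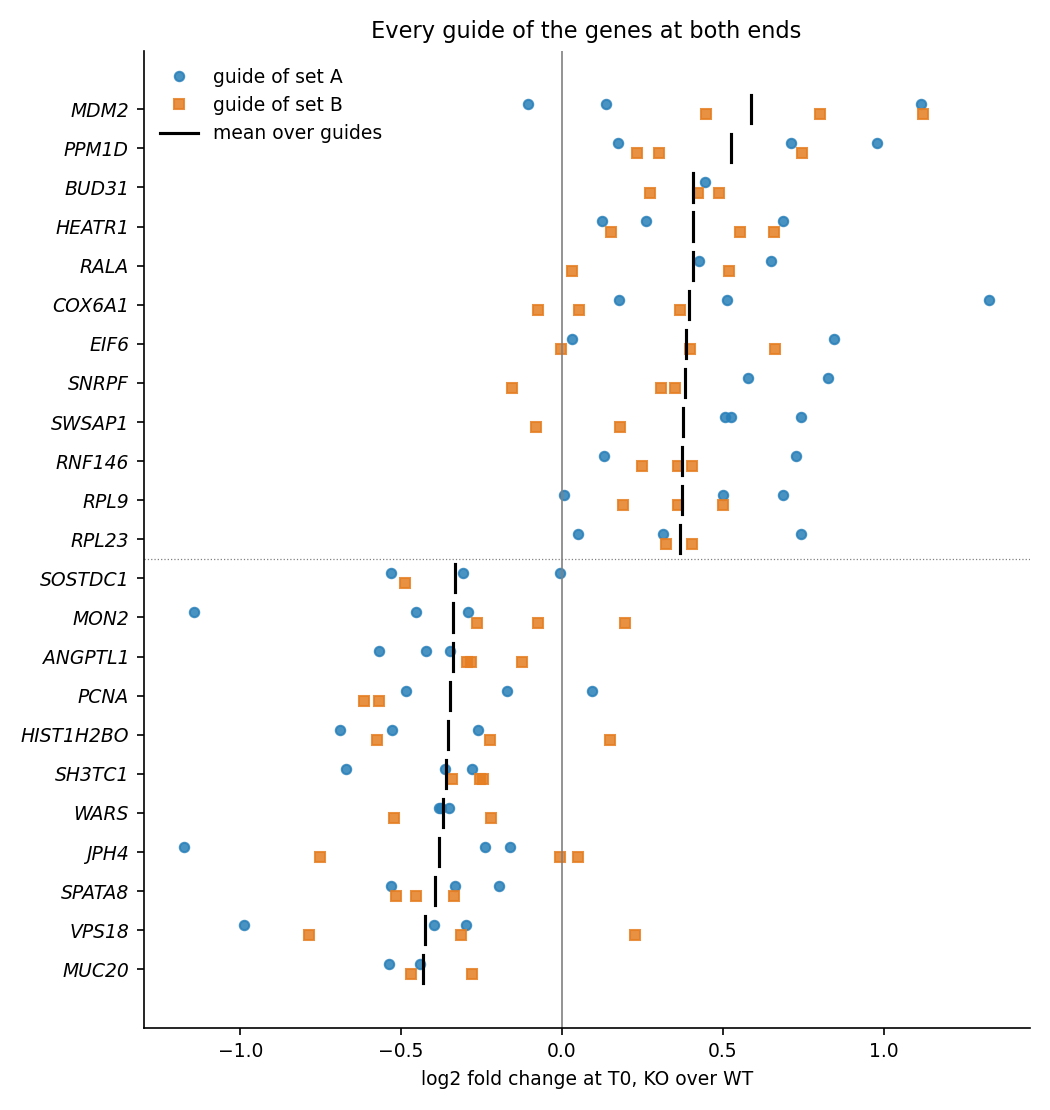
Log2 fold change, KO over WT at T0, of each guide of the 12 genes at the high end (above the dotted line) and the genes at the low end (below it), with circles for set A, squares for set B and a bar for the mean over guides. MDM2 combines guides near 0 with guides beyond 0.80, whereas the guides of BUD31, WARS and MUC20 lie close together.

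The genes of the cytosolic ribosome were the largest group with one direction. Of 83 measured, 13 rose and none fell in KO, so that 15.7% were called against 4.57% of all genes. The median of their mean guide changes was 0.07, against 0.0028 for all genes tested. Positive means were found in 9802 of all 19044 genes and in 63 of these 83. Of their 443 guides 280 were higher in KO, or 63.2%, against 50.7% of the guides of all genes, and the median guide change was 0.08 in set A and 0.09 in set B. Besides RPL9 and RPL23 the strongest were RPL17, at 0.32 ± 0.29 with 5 of 6 guides higher (adjusted p = 0.000432), and RPS18, at 0.33 ± 0.29 with 5 of 6 (adjusted p = 0.00164). RPL17 shares its sequence with the read-through gene RPL17-C18orf32, which was also called (0.33 ± 0.24, adjusted p = 0.000840), and guides of the 2 names cannot be taken as separate evidence. RPL3, RPS15A and RPS24 each had 6 of 6 guides higher. With 1 library left out, between 7 and 10 of the 83 were still called higher and none lower.

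Guides against the ribosome were rarer than the average guide in both genotypes, and less so in KO. Their median level was 2.68 ± 0.037 log2 CPM in KO and 2.58 ± 0.0042 log2 CPM in WT (SD, n = 3 each), against 3.03 log2 CPM for the guides of all genes in each genotype. The makeup of the guide library before transduction was not analysed here, so these levels also hold how common each guide was at the outset. Ribosome genes also had fewer listed guides, 5.34 a gene against 5.69.

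The RNA polymerase, proteasome, core splicing, Mediator and mitosis lists had calls in KO that were all in the higher direction. These calls made up 9.09 to 14.3% of each list against 4.57% of all genes, while most members did not pass. The lists are grouped here by that outcome. Lists of other machinery that all cells need, DNA replication and the aminoacyl-tRNA synthetases, had calls in both directions. Of 28 RNA polymerase subunits 4 rose and none fell (14.3%), namely POLR3E (0.29 ± 0.22 over guides), POLR2H (0.28 ± 0.16), POLR3B (0.24 ± 0.16) and POLR3C (0.19 ± 0.18), and 25 of 28 had a positive mean, with a median of 0.09. Of 39 proteasome subunits 5 rose and none fell (12.8%; 27 positive means, median 0.10), led by PSMD4 at 0.30 ± 0.33 (adjusted p = 0.000677) with PSMB7 and PSMD13, but the median guide change of the list was 0.14 in set B and -0.01 in set A. Of 30 core splicing genes 3 rose and none fell (10%; 21 positive, median 0.07), namely SNRPD3 at 0.42 ± 0.43, SNRPF and PRPF6 at 0.19 ± 0.23. Of 33 genes of Mediator, the coactivator of RNA polymerase II, 3 rose and none fell (MED8, MED9 and MED11; 9.09%, 24 positive, median 0.06). Of 26 mitosis genes 3 rose and none fell (11.5%; 17 positive, median 0.04), namely CDC20, the activator of the anaphase-promoting complex, at 0.36 ± 0.34, SPC24 and TPX2. With DESeq2 1 mitosis gene was called lower, and in the fit of the 6 T0 libraries 1 mitosis and 1 proteasome gene. With single libraries left out the number of calls was between 1 and 4 in the proteasome, 0 and 4 in the RNA polymerases, 0 and 2 in the splicing genes, 0 and 1 in Mediator and 1 and 2 in the mitosis list, where it was 2 only without KO library C. The RNA polymerases had 0 calls without WT library A, the splicing genes without KO library B or WT library B, and Mediator without KO library C or WT library A or B, while the proteasome had 1 without WT library C. Mediator also had 0 calls without each gene's most abundant guide. Of 82 nucleolar factors that assemble ribosomes, a list drawn up after values had been seen, HEATR1, UTP18, WDR43 and GNL3 rose and none fell, which at 4.88% is close to the share of all genes, while 60 of the 82 means were positive (median 0.06).

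The DNA replication, mitochondrial ribosome, complex I and aminoacyl-tRNA synthetase lists had calls in both directions. The called share was 4.76 to 6.67% of each list, against 4.57% of all genes. Of all 19044 genes 9802 had a positive mean. Of 42 replication genes 1 rose, PRIM1, the catalytic subunit of primase (0.22 ± 0.11, 4 of 4 guides, adjusted p = 0.0298), and 1 fell, PCNA (25 positive means, median 0.01). PRIM1 lost its call without any 1 library, PCNA lost its call without KO library B, and both lost theirs without their most abundant guide. Of 76 mitochondrial ribosome genes 3 rose and 1 fell (45 positive, median 0.02), with MRPL4 at 0.28 ± 0.22 and MRPS23 at 0.30 ± 0.20, against MRPL30 at -0.18 ± 0.18. Of 45 complex I genes 1 rose and 2 fell (17 positive, median -0.02, which turned positive in the summed counts under the non-targeting scaling). NDUFA10 was the strongest of these, at -0.29 ± 0.18 with 6 of 6 guides lower (adjusted p = 0.000367), beside NDUFB1 at -0.20 ± 0.18 with 4 of 5, while NDUFS3 stood at 0.19 ± 0.06 with 6 of 6 higher. MRPS23 lost its call in 4 of the 6 fits that leave out a library and NDUFS3 without KO library C or WT library A. MRPL4 and NDUFS3 lost theirs without their most abundant guide. Of 37 aminoacyl-tRNA synthetases LARS rose (0.25 ± 0.26; not called without KO library C or WT library B) and WARS fell. With 4.57% of all genes called by edgeR, lists of 15 to 20 genes can hold 0 calls without differing from other genes. None of 15 ATP synthase, 20 glycolysis, 15 G1 cyclin and E2F or 19 core apoptosis genes was called by edgeR over all libraries or by DESeq2, while 3, 3, 4 and 3 of them had an unadjusted edgeR p under 0.05. With the non-targeting scaling 2, 2, 4 and 1 of them were called higher. In the fit of the 6 T0 libraries 1 glycolysis and 1 G1 gene were called higher, without each gene's most abundant guide 1 G1 gene was called higher, and by limma on mean log2 CPM 1 ATP synthase gene was called lower.

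Repair and growth control genes were called at 6.67 to 8.57% of each list, against 4.57% of all genes. Of 14 genes of non-homologous end joining XRCC6, which encodes Ku70, rose (0.32 ± 0.33, 4 of 5 guides, adjusted p = 0.00599; not called by DESeq2 or without KO library A), while LIG4, the ligase of the pathway, had all 6 guides lower at -0.17 ± 0.08 without a call (adjusted p = 0.0718). Of 29 recombination and Fanconi anaemia genes BARD1, the partner of BRCA1, rose (0.21 ± 0.22, adjusted p = 0.0242, with KO and WT libraries that overlap) and FANCB fell (-0.18 ± 0.11, 6 of 6 guides, adjusted p = 0.0435). FANCB lost its call in 9 of 15 alternatives, with the non-targeting scaling and in 5 of the 6 fits that leave out a library among them, and BARD1 in 4 of these 6. Of 15 genes of the ATR-CHK1 checkpoint only WEE1, the kinase that restrains entry into mitosis, was called, at -0.21 ± 0.31 (adjusted p = 0.0146), and it lost its call in 4 of the 6 fits. Of 35 growth suppressors FRYL (0.30 ± 0.18, 6 of 6 guides) and TSC2 (0.15 ± 0.16, 6 of 6) rose and FBXW7, a substrate receptor for ubiquitination of cyclin E and MYC, fell (-0.25 ± 0.14, 5 of 5 lower). TSC2 lost its call in 4 of the 6 fits and FBXW7 without WT library C. XRCC6, BARD1, FANCB and TSC2 also lost theirs without their most abundant guide.

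**Figure D3:**
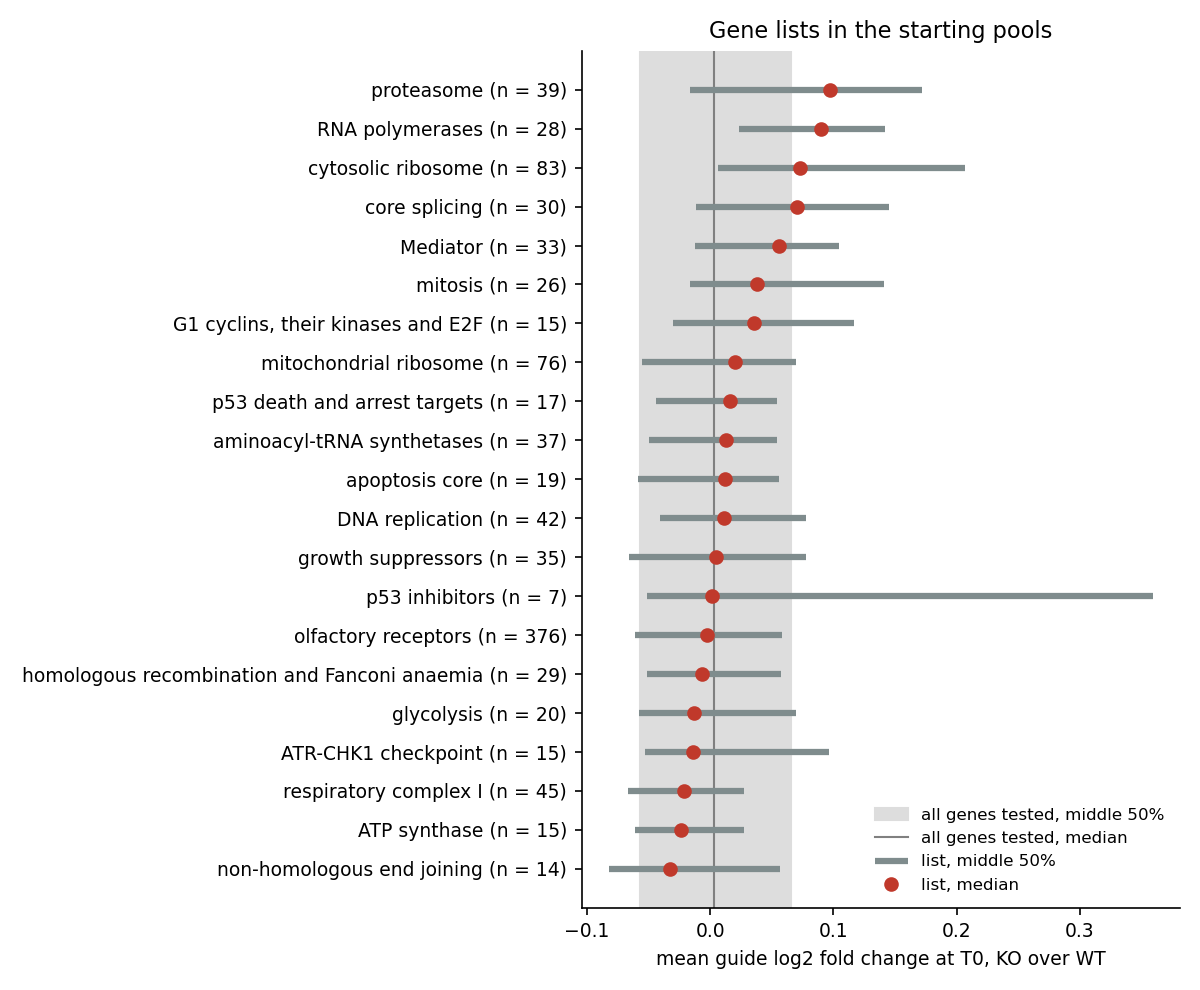
Median (red) and middle 50% (grey bars) of the mean guide log2 fold change, KO over WT at T0, over the measured genes of each list, with the middle 50% of all genes tested shaded. The proteasome, RNA polymerase, cytosolic ribosome and core splicing lists have the highest medians, and the olfactory receptors sit on the median of all genes.

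Olfactory receptors, the odour sensors of the nose, have no known role in the growth of such cells. Of 376 genes 13 rose and 6 fell in KO, so that 5.05% were called, close to the 4.57% of all genes, and the median change was -0.0024. Among those that rose, OR4F16 (0.25 ± 0.11, 6 of 6 guides, adjusted p = 0.00594) and OR4F21 (0.27 ± 0.12, 6 of 6, adjusted p = 0.00571) belong to a set of nearly identical receptor genes whose guides can cut several copies, and both lost their call without WT library A. OR6N1 is not of that set (0.27 ± 0.11, 5 of 5, adjusted p = 0.00164). OR4F3 and OR4F29, which share the OR4F name, rose as well, so the 13 calls may not all be separate evidence. A separate list of 188 genes from families of near-identical copies, without these OR4F genes, was drawn up after such values had been seen. Of these 11 rose and 1 fell in KO, or 6.38%, with 137 positive means and a median of 0.04. POTEE (0.29 ± 0.17, 6 of 6 guides, adjusted p = 0.00257) and FOXD4L4 (0.27 ± 0.07, 5 of 5, adjusted p = 0.00700) are examples, and guides of one family share targets, so that its members are not separate evidence.

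Non-targeting guides, which make no cut, took a smaller share of the KO pool. They made up 1.58% of the counts in each KO library at T0, against 1.63, 1.64 and 1.63% in the WT libraries, and no library of one group entered the range of the other. Their median log2 CPM lay 0.82 ± 0.010 above that of the targeting guides in KO and 0.87 ± 0.0089 above it in WT (SD, n = 3 each), a difference of -0.05. By an exact two-sided permutation test p was 0.1, the smallest that 3 libraries against 3 allow. The difference was -0.06 against olfactory receptor guides and -0.05 against targeting guides of set A alone. In the later libraries the order was the same, with 1.63, 1.64 and 1.63% in KO DMSO and 1.72, 1.72 and 1.70% in WT DMSO, and with 1.60, 1.59 and 1.62% in KO etoposide and 1.67, 1.66 and 1.66% in WT etoposide.

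**Figure D4:**
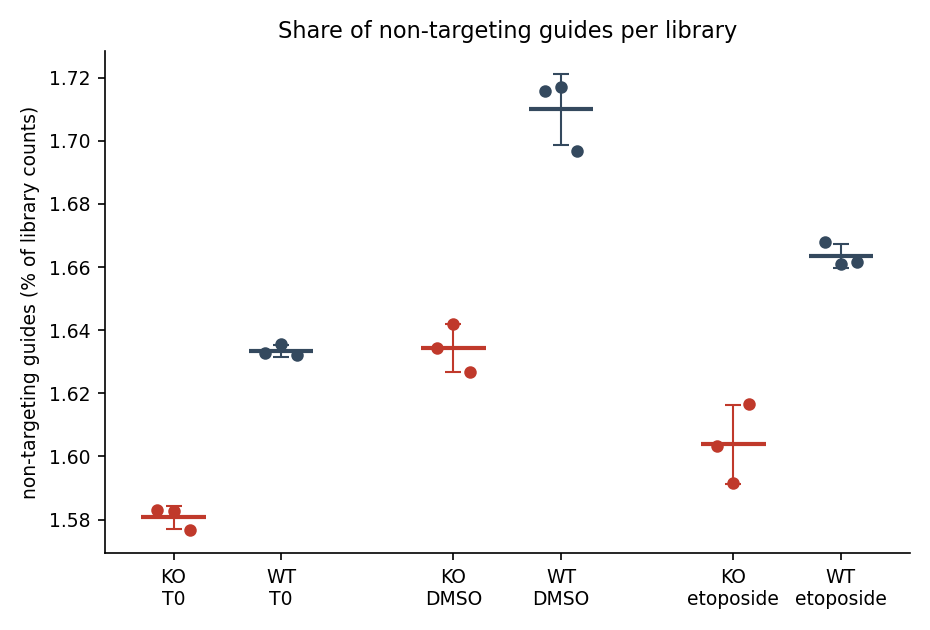
Share of library counts taken by the 999 non-targeting guides, with points for libraries, horizontal bars for means and error bars for the SD; KO is left of WT at T0, in DMSO and in etoposide, and the axis does not start at 0. Each KO library lies below each WT library of the same condition, with 1.58% against 1.63 to 1.64% at T0.

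The same pools read again after 96 h in DMSO gave most of these genes the same sign. The DMSO libraries are on neither side of the T0 contrast, but they entered the fit that gave its estimate of the spread. At 96 h 3780 genes were called between KO and WT, or 19.8%, and 16.2% of guides. Of the 461 genes higher at T0, 453 had the same sign of summed change at 96 h and 312 were called higher again, which is 67.7% of the T0 calls and 15.6% of the 1995 genes higher at 96 h. Of the 410 lower genes 396 had the same sign and 242 were called lower again, or 59.0% of the T0 calls and 13.6% of the 1785 at 96 h. None was called in the opposite direction, and 72.1% of all tested genes had the same sign at both times. Log2 fold changes at T0 and at 96 h correlated at 0.64 across genes and at 0.62 across guides. The non-targeting guides alone gave 0.61, about the same as guides that cut genes. These correlations are descriptions, since both readings come from the same 2 pools.

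PPM1D stood at 0.40 in summed counts at T0 and 0.66 at 96 h (adjusted p = 1.44e-16 at 96 h), and MDM2 at 0.45 and 0.48 (adjusted p = 5.19e-07). USP7, not called at T0, reached 0.29 at 96 h (adjusted p = 0.000198), and TP53BP1, also not called at T0, reached -0.28 (adjusted p = 7.34e-06). CDKN1A was at -0.23 at T0 but -0.03 at 96 h (adjusted p = 0.780), EIF6 at 0.31 and -0.03, and PCNA at -0.36 and -0.09. In none of these genes did the change between the 2 times pass its own test (adjusted p = 0.470 for CDKN1A, 0.192 for EIF6 and 0.589 for PCNA). Over all genes the difference between 96 h and T0 was called in 2, or 0.0105%. The ribosome list had 28 of 83 genes higher and none lower at 96 h, when 1995 of all 19044 genes were higher and 1785 lower. At T0 it had 13 higher, when 461 of all genes were higher, so calls were more common at 96 h in all genes too. The median of the list was 0.13 at 96 h and 0.07 at T0.

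**Figure D5:**
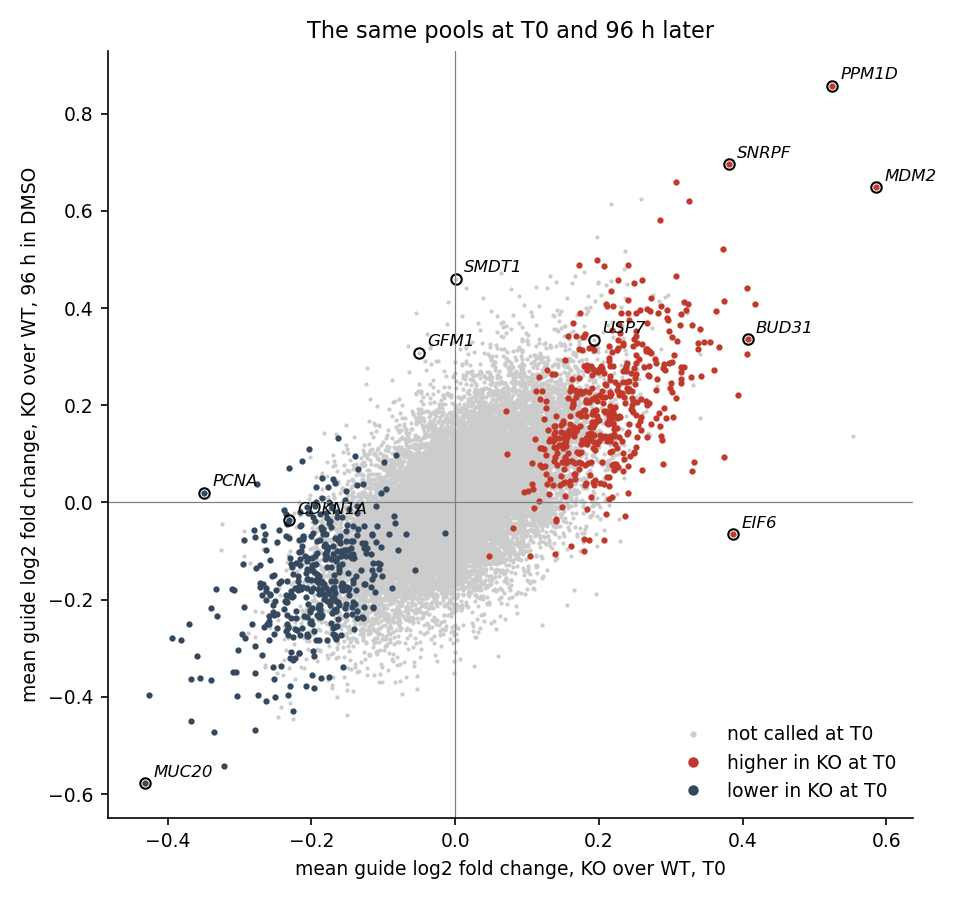
Mean guide log2 fold change of each gene, KO over WT, at T0 (x) and after 96 h in DMSO (y), with genes called higher in KO at T0 in red, genes called lower in dark grey and the rest in light grey. PPM1D and MDM2 lie at the upper right and MUC20 at the lower left, while EIF6, PCNA and CDKN1A lie near 0 on the y axis.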

How the data were processed

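The authors deposited raw counts per guide and library, per the file header, and of tools the submitters' processing notes list Bowtie2 and DESeq2, with no version. Which guide library was used, how reads were counted, on which build and with which filter is not given in the sources used here. No guide in the table averaged fewer than 62.6 counts over the 18 screen libraries, so rarer guides may have been removed. Guide sequences were not analysed here.

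Guide counts, and counts summed over the guides of a gene with at least 3 guides, were each fitted with edgeR's quasi-likelihood model (robust) over all 18 screen libraries, scaled by TMM, with 12 residual degrees of freedom. P-values were adjusted by Benjamini-Hochberg over all guides or all genes, with a threshold of 0.05. Gene CPM is the sum over guides on the guide table's scaled library sizes, and log2 CPM used a prior count of 2. The ± after a gene's log2 fold change is the SD over its guides. The methods were tested on simulated counts with 1 common spread and the same change in all guides of a gene. Differences between the pools in single guides were not simulated, so that test cannot speak for the calls made here. The fits ran in R 4.3.3 with DESeq2 1.42.0, limma 3.58.1 and edgeR 4.0.16.

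Named genes were, among called genes with 4 or more guides, at least 80% of guides sharing the sign of the mean and no overlap between KO and WT libraries, the 12 highest and 12 lowest by mean guide change (368 and 335 were eligible), plus 3 members with the smallest p in each of 22 gene lists, plus 10 fixed genes of the p53 circuit. Some genes that met this rule are not reported here. Further genes named beside them were chosen after their values were seen. The comparison, the lists and this rule were chosen with earlier results of these data known, and 2 further lists, of near-identical gene copies and of ribosome assembly factors, were added later. NOL3 and NOL4, which a name pattern had wrongly put among the assembly factors, were taken out after the list's values had been seen. Deviations of same-lettered KO and WT libraries correlated at -0.00514, 0.00485 and 0.00227, which shows no pairing by letter in guide abundance. These values cannot tell whether same-lettered libraries were handled together. Total counts at T0 were lowest in library A and highest in library B in both genotypes.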

Additional observations from a re-analysis of the deposited data

Results flagged for a closer look

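In GFM1 and SMDT1, both chosen after their values were seen, the KO-to-WT difference changed between T0 and 96 h in DMSO by edgeR's test of the change itself, adjusted over 19044 genes. GFM1 encodes a mitochondrial translation elongation factor, and its summed counts differed by -0.05 at T0 (adjusted p = 0.597) and by 0.33 at 96 h (adjusted p = 1.35e-06), a change of 0.38 (adjusted p = 0.00817). SMDT1 encodes a subunit of the mitochondrial calcium uniporter, and its summed counts differed by -0.0014 at T0 (adjusted p = 0.995) and by 0.46 at 96 h (adjusted p = 5.90e-07), a change of 0.46 (adjusted p = 0.0444).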

How the results depend on the processing

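Genes called at T0 numbered 871, and 2130 with the non-targeting scaling (620 shared), 1355 with DESeq2 (857 shared), 2043 in a fit of only the 6 T0 libraries (all 871 shared), 0 with guides as the units by limma, and 336 to 405 with 1 library left out. Guides called numbered 2972, and 9013 in the fit of the 6 T0 libraries, 4050 with the non-targeting scaling (77.2% higher in KO), and 586 to 990 with 1 library left out. Genes called at 96 h numbered 3780, and 5855 with the non-targeting scaling (89.5% higher in KO). Without each gene's most abundant guide 769 genes were called, 405 of them shared with the 871. The non-targeting difference of -0.05 was -0.060 against olfactory receptor guides. The cause of these shifts was not tested. With the letter as a replicate block, which the labels do not show to pair the libraries, 952 genes and 3346 guides were called at T0 and 3897 genes at 96 h. Of the 60 named genes called at T0, 60 stayed called with the block, 59 with DESeq2, 57 with the non-targeting scaling, 49 with mean log2 CPM and limma and 44 without the most abundant guide, and 36 to 44 with 1 library left out. MDM4, not called, turned to -0.045 without its most abundant guide.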
